A study of Homo sapiens with 24 samples.

Results

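The comparison described here is the difference between 2 responses to Nutlin-3a: the response of cells in which the long noncoding RNA PURPL was silenced, minus the response of control cells. It used 20 of the 24 RNA sequencing libraries of the study and 5 of its 6 cell lines. All lines derive from SK-HEP-1, a long-established human cell line of liver tumour origin, given as endothelial cells in the labels. All carry CRISPR interference (CRISPRi), a system that brings a cutting-dead Cas9 with a repressor to the promoter that the guide RNA matches. The control class is 2 lines with non-targeting guides, NTC1 and NTC2. The silenced class is 3 lines with guides against PURPL, PURPL_sgRNA_4, PURPL_sgRNA_5 and PURPL_sgRNA_6, called here the guide 4, guide 5 and guide 6 lines. Cells of each line received 10 µM Nutlin-3a or its vehicle DMSO, with 6 h as the time, and were harvested as 2 biological replicates per line and treatment, numbered 1 and 3 in the labels. The 4 libraries of PURPL_sgRNA_2 were left out by the rule that defines the comparison, because 1 of its Nutlin-3a libraries has a strong GC bias. Each guide is represented by a single established line, so a guide and the line that carries it cannot be told apart.

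Nutlin-3a blocks the pocket of MDM2, the ubiquitin ligase that binds p53 and sends it for degradation. When MDM2 is blocked, p53 accumulates and activates genes for cell cycle arrest, apoptosis, DNA repair and its own feedback, MDM2 among them. Growth genes then fall indirectly, largely through p21, the product of CDKN1A, which keeps the DREAM and RB repressor complexes on cell cycle promoters. PURPL is a p53-induced long noncoding RNA that has been linked to lower basal p53 levels through the protein MYBBP1A, so its silencing poses the question whether cells respond differently when p53 is raised.

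PURPL (ENSG00000250337.6, a lincRNA gene) lies on chromosome 5 of hg38, from 27472292 to 27496401 on the plus strand. Its promoter is printed because the gene is both the target of the guides and a responder to Nutlin-3a. The sequence is the RefSeq promoter on GRCh38.p14, chr5:27472042-27472341, plus strand, from 250 bases before to 50 after the annotated start. Capitals mark matches to the 10-letter unit of the p53 response element consensus.
PURPL promoter: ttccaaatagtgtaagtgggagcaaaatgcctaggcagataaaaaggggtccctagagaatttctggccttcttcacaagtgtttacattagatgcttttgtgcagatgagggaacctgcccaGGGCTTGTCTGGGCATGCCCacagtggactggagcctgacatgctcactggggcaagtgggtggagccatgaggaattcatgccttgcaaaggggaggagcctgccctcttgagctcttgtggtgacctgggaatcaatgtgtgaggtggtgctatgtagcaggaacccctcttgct
The 2 units abut and form a full site of 20 letters with 0 letters off the consensus, which begins 127 bases before the start. Among the 35116 promoters of this length, 2329 (6.63%) held such a unit on either strand and 6 (0.0171%) held a full site with no letter off. A match describes the letters only.

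The 20 libraries held 66.4 M to 92.1 M counts each, with a median of 73.8 M, and 17011 genes were tested. Several endothelial markers were nearly absent: PECAM1 reached at most 0.0283 CPM, the count scaled to library size, CDH5 0.0586 and KDR 0.0126. ERG, PLVAP and SOX17 had 0 counts in every library. Others were present: ENG lay at 20.0 to 53.2 CPM, ROBO4 at 1.54 to 4.75 CPM and EGFL7 at 0.299 to 1.65 CPM. Of the hepatocyte markers, ALB reached at most 0.0145 CPM, while SERPINA1 lay at 0.611 to 2.18 CPM and AFP at 0.82 to 1.69 CPM. Vimentin (VIM) lay at 3570 to 4730 CPM. The simple-epithelial keratin KRT18 lay at 872 to 1740 CPM, while the epithelial markers CDH1 and EPCAM reached at most 0.0568 and 0.75 CPM. The markers were thus mixed, and the expression did not match the endothelial label in full.

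PURPL itself was strongly silenced in both treatments and was higher with Nutlin-3a in every line (edgeR adjusted p = 7.8e-06 for the mean over the 5 lines). In DMSO the 4 NTC libraries held 7.54 and 7.54 CPM (NTC1, harvests 1 and 3) and 8.47 and 10.2 CPM (NTC2). The 6 guide libraries in DMSO ranged from 0.519 to 0.869 CPM with a median of 0.583. With Nutlin-3a the NTC libraries held 29.7 and 38.01 CPM (NTC1) and 31.3 and 29.98 CPM (NTC2), and the guide libraries ranged from 1.60 to 2.92 CPM with a median of 2.00. No guide library reached any NTC library, with or without Nutlin-3a. The guide 4, 5 and 6 lines kept 6.20%, 9.81% and 6.91% of the mean NTC level in DMSO and 6.65%, 7.79% and 4.99% with Nutlin-3a.

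The relative rise of PURPL overlapped between the classes, and the absolute rise did not. Levels with Nutlin-3a were 4.49-fold those in DMSO in NTC1, 3.28-fold in NTC2, and 4.10-, 3.04- and 2.76-fold in the guide 4, 5 and 6 lines. In CPM the rise was 26.3 and 21.3 in the NTC lines and 1.62, 1.69 and 1.03 in the guide lines. The fitted log2 response was 1.98 in the NTC class and 1.70 in the guide class, a difference of -0.28 (SE 0.20, 95% interval -0.74 to 0.19, edgeR quasi-likelihood adjusted p = 0.505). With the GC trend removed, as described below for all genes, the difference was -0.18 (SE 0.14, interval -0.50 to 0.14). The guide 4 line (log2 response 2.02) lay between NTC1 (2.20) and NTC2 (1.76), so the classes overlapped. An exact two-sided permutation test, over all 10 ways of dividing the 5 lines, gave p = 0.4 with and without the GC trend, where 0.1 is the smallest value it can give. Without line NTC2 the difference was -0.497 with an edgeR adjusted p of 0.0048, the only alternative past the threshold, and that fit has 1 NTC line.

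The p53 response itself was large in both classes. Over the 5 lines, 2901 genes rose (17.1% of those tested) and 3654 fell (21.5%) at an adjusted p under 0.05. Those changed at least 2-fold were 457 up and 155 down. Of the 457, 456 moved in the same direction in both classes and 439 in all 5 lines, and of the 155 the numbers were 153 and 142. The genes were picked on the mean of these same 5 lines, so such agreement largely follows from the pick. The median log2 response of the 457 was 1.47 in the NTC class and 1.56 in the guide class, a median ratio of 1.04 that became 0.990 with the GC trend removed. For the 155 that fell it was -1.17 and -1.28, a ratio of 1.14 and 1.18 after removal.

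**Figure D1:**
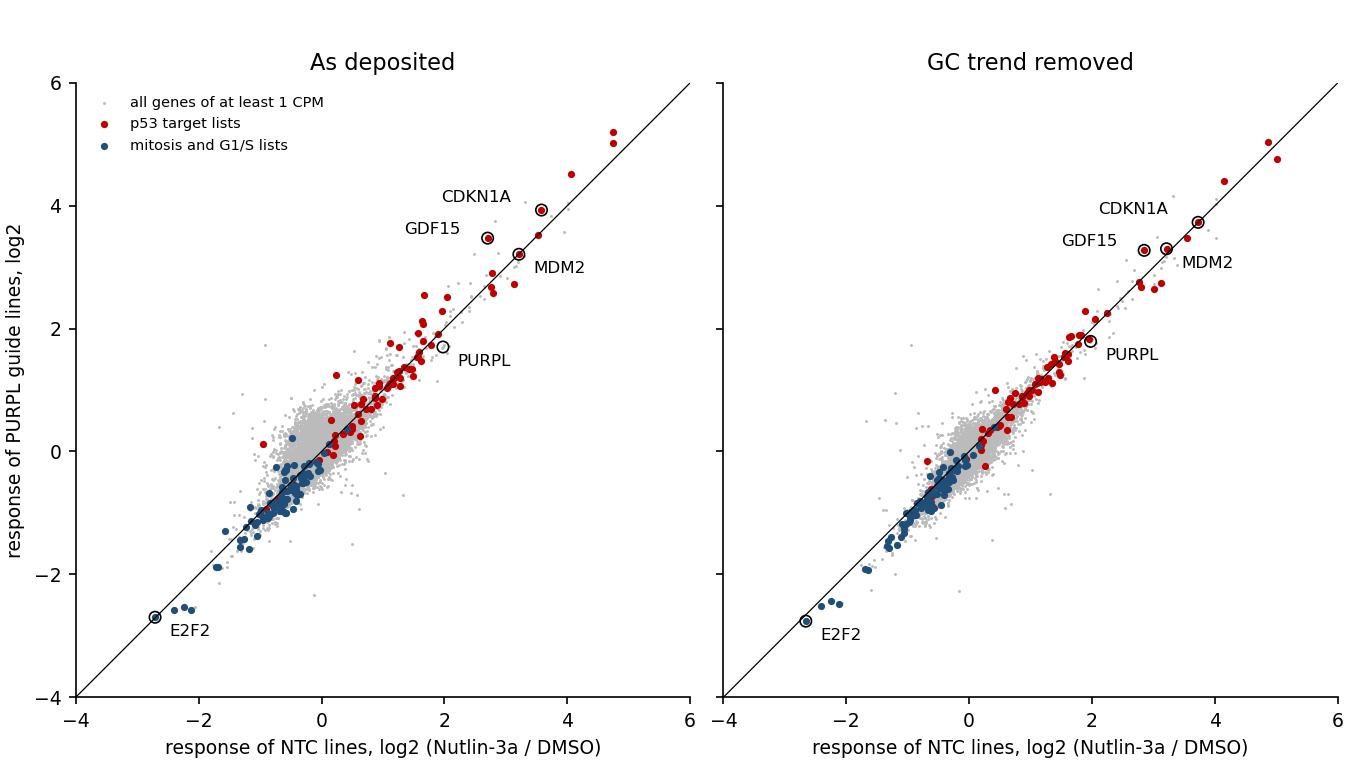
Log2 response to Nutlin-3a (Nutlin-3a over DMSO) in the guide lines (vertical) against the NTC lines (horizontal), each point 1 gene of at least 1 CPM in 1 of the 4 class and treatment groups, as deposited (left) and with the GC trend removed (right). p53 target lists are red and cell cycle lists blue; PURPL, CDKN1A, MDM2, GDF15 and E2F2 are circled. The genes follow the diagonal, MDM2 lying on it at 3.21 in both classes.

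Against that response, the difference between the classes was called for 1 of 17011 genes (0.00588%) as deposited and for 2 (0.0118%) with the GC trend removed. The gene called in both is AP001273.2. Where genes are given as higher or lower in the guide lines for this difference, here and below, the response is meant and not the level. DESeq2, run only on the data as deposited, called 20 genes higher in the guide lines and 3 lower, GDF15, SFN, TMEM54, OVCA2 and RIN1 among the former. Of those called higher, all but AP001273.2, SMIM11B and RPS27AP16 had a smaller difference by edgeR once the GC trend was removed. An unadjusted p under 0.05 was reached by 1398 genes higher in the guide lines (8.22%) and 667 lower (3.92%). With the GC trend removed those counts were 731 (4.30%) and 2029 (11.9%), so the larger group changed from higher to lower. The counts as deposited moved with single libraries. Leaving out each of the 20 in turn gave 472 to 2400 genes higher and 178 to 2228 lower, the fewest without guide 4 Nutlin-3a harvest 1 and the most without NTC2 Nutlin-3a harvest 3. The higher count moved over 1.5 times also without NTC2 DMSO harvest 1 (715), NTC2 Nutlin-3a harvest 1 (650), guide 5 Nutlin-3a harvest 3 (600) and NTC2 DMSO harvest 3 (2098). The lower count did so without NTC1 DMSO harvest 1 (401), guide 6 DMSO harvest 1 (437) or 3 (364), NTC2 Nutlin-3a harvest 1 (348), guide 5 Nutlin-3a harvest 3 (372), guide 6 Nutlin-3a harvest 3 (383), NTC2 DMSO harvest 3 (1195) and guide 4 Nutlin-3a harvest 3 (1340). Line responses of the 2 classes did not overlap for 2443 genes higher in the guide lines (14.4%) and 2954 lower (17.4%), and for 1730 (10.2%) and 4269 (25.1%) after removal. The median difference of all genes was -0.02 on the log2 scale and -0.05 after removal, and values below are given as fitted, against those medians. The difference was negative for 9094 of the 17011 genes, and for 10493 after removal.

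The GC content of the transcript moved with the difference. Genes were placed in deciles of GC content, known for 16960 of them. The median log2 difference ran from -0.14 in the lowest decile (25.8% to 40.2% GC) to 0.44 in the highest (61.1% to 73.5%). In the highest decile 529 genes were higher in the guide lines at an unadjusted p under 0.05 and 3 lower, and in the lowest 24 were higher and 106 lower. NTC1 stood apart: its median response ran from 0.14 in the lowest decile to -0.49 in the highest, while the highest decile stood at 0.12 in NTC2 and 0.14, 0.41 and 0.22 in the guide 4, 5 and 6 lines. The slope of the difference was 0.23 log2 units per 10 points of GC. It was 0.05 without NTC1, 0.16 without the DMSO library of NTC1 from harvest 3, 0.16 without the Nutlin-3a library of guide 5 from harvest 3, and 0.40 without NTC2. Removing a smoothed trend on GC from each line and treatment brought it to 0.003, with decile medians of -0.06 to -0.03. Whether the trend arose in library preparation was not tested.

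**Figure D2:**
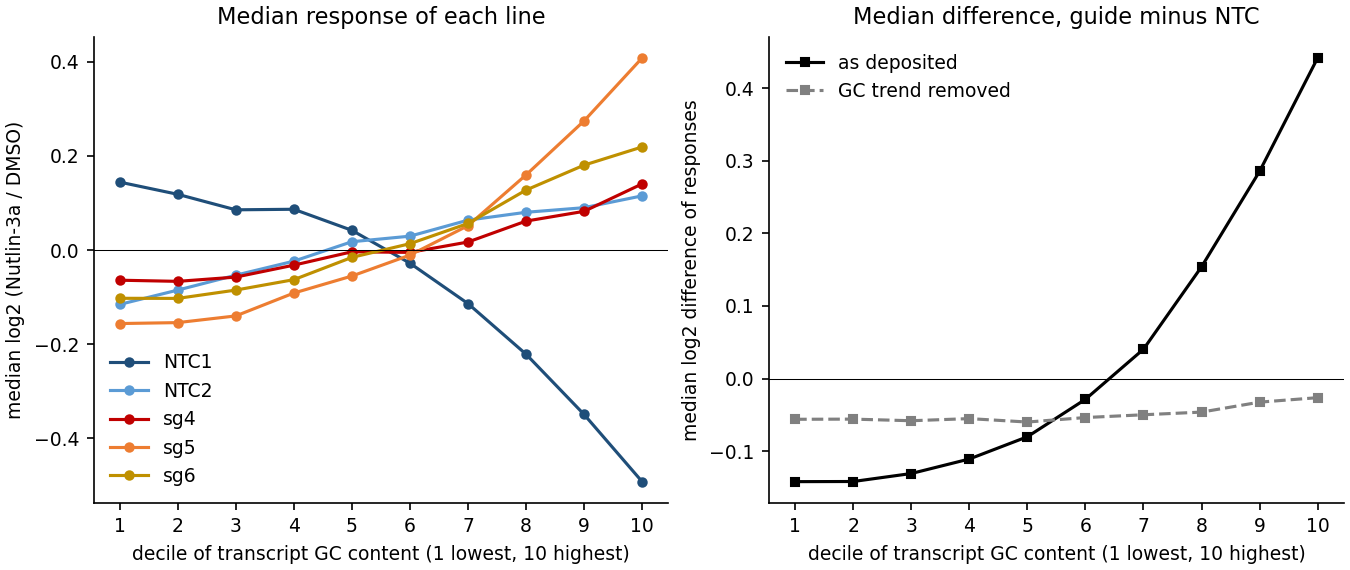
Median log2 response of each line and median difference of responses by decile of transcript GC content, from lowest to highest, as deposited and with the GC trend removed. The difference runs from -0.14 to 0.44 as deposited and stays between -0.06 and -0.03 after removal.

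Among p53 targets for growth arrest and feedback, MDM2 and BTG2 rose over the 5 lines and had differences near 0. Its DMSO levels were 384, 406, 438 and 489 CPM in the NTC libraries and 441 to 495 CPM (median 446) in the guide libraries. Its Nutlin-3a levels were 3770, 3792, 4210 and 3758 CPM and 3457 to 5168 CPM (median 4148), and the classes overlapped in both treatments. The log2 difference was -0.003 (SE 0.08, interval -0.18 to 0.18), and 0.09 (interval -0.05 to 0.22) after GC removal. BTG2, an antiproliferative cofactor, had a difference of -0.01 (interval -0.20 to 0.18) and line responses of 3.47, 3.58, 3.48, 3.55 and 3.51 in the order NTC1, NTC2, guides 4, 5 and 6, which is the order used from here on.

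CDKN1A, which encodes the cyclin-dependent kinase inhibitor p21, had a difference that GC removal brought to near 0. Its 4 NTC libraries held 82.0, 112, 71.9 and 76.4 CPM in DMSO and 934, 1046, 945 and 1056 CPM with Nutlin-3a. The guide libraries held 76.2 to 92.3 CPM (median 84.3) in DMSO and 1071 to 1553 CPM (median 1308) with Nutlin-3a, all above the highest NTC library. The log2 difference was 0.35 (SE 0.14, interval 0.02 to 0.67, edgeR adjusted p = 0.407). After GC removal it was 0.003 (interval -0.12 to 0.12), with line responses of 3.73, 3.72, 3.68, 3.75 and 3.76.

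GDF15, a secreted stress cytokine, kept a difference of smaller size after GC removal. In DMSO the NTC libraries held 3.60, 3.50, 3.51 and 1.95 CPM and the guide libraries 1.73 to 2.69 CPM (median 1.84). With Nutlin-3a they held 21.6, 17.1, 20.6 and 20.3 CPM and 17.8 to 30.3 CPM (median 22.8). The line responses were 2.47 and 2.93 in the NTC lines and 3.35, 3.57 and 3.48 in the guide lines, with no overlap. GDF15 was named for a small p of this difference, and 14.4% of all genes lay wholly higher in the guide lines. The difference was 0.77 (SE 0.16, adjusted p = 0.407) as deposited and 0.42 (SE 0.08, interval 0.25 to 0.60, adjusted p = 0.239) after removal, so it did not pass the test in either fit. In the treated libraries the classes overlapped, and 3 of the 4 NTC libraries were above every guide library in DMSO.

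Of the 29 tested members of this arrest list, 25 rose over the 5 lines and 2 fell. The difference was positive for 11 and negative for 18, with a median of -0.05 against -0.02 for all genes. At an unadjusted p under 0.05, 7 were higher in the guide lines and 0 lower, where 8.22% and 3.92% of all genes were. After GC removal 3 were higher and 2 lower, where 4.30% and 11.9% of all genes were. SFN, the 14-3-3 sigma checkpoint protein, differed by 1.01 (interval 0.35 to 1.67) and by 0.57 after removal, and DDIT4, an mTORC1 inhibitor, by 0.48 and 0.02.

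Of 21 tested p53 targets for apoptosis, 20 rose over the 5 lines, and the median difference was 0.03 in both fits. FDXR, a mitochondrial electron donor to iron-sulfur and steroid synthesis, had a difference of 0.87 (interval 0.26 to 1.47) that was 0.41 after removal. The difference of BAX, which permeabilises mitochondria, was 0.56 and then 0.21, and that of TP53I3 0.31 and then 0.10. At an unadjusted p under 0.05, 3 members were higher and 0 lower (8.22% and 3.92% of all genes), and 4 and 2 after removal (4.30% and 11.9% of all genes).

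The 27 tested targets for DNA repair and metabolism divided evenly, 14 higher and 13 lower in the guide lines, with a median of 0.01 (0.00 after removal). POLH, the polymerase that bypasses ultraviolet lesions, rose less in each guide line (1.30, 1.15 and 1.24) than in NTC1 (1.56) and NTC2 (1.42), a difference of -0.26 (interval -0.46 to -0.06) that was -0.23 after removal. REV3L, the catalytic subunit of another bypass polymerase, differed by -0.37 and -0.28, and SCO2, a cytochrome c oxidase assembly factor, by 1.07 and 0.54. None of these passed the adjusted test, and 17.4% of all genes had line responses wholly lower in the guide lines. For REV3L the lowest NTC library in DMSO stood apart at 30.1 CPM, where the NTC median was 63.7 and the highest 68.3. The guide libraries in DMSO held 60.3 to 68.8 CPM. With Nutlin-3a the classes overlapped, at 73.9 to 91.3 CPM (NTC) and 69.9 to 87.6 CPM (guide). Of 15 long noncoding RNAs linked to p53, 9 rose, the median difference was -0.06 (0.02 after removal), and NEAT1, the scaffold of paraspeckles, differed by -0.18 (interval -0.47 to 0.10).

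Genes of 2 proteins linked to PURPL gave no call. MYBBP1A, a nucleolar protein, differed by 0.40 (SE 0.16, adjusted p = 0.407) and by 0.03 (interval -0.11 to 0.17) after removal. ELAVL1, an RNA-binding protein, differed by 0.01 (interval -0.17 to 0.19) and -0.05, with -0.014 under RLE size factors. Transcript levels do not measure the proteins. Of 28 ribosome biogenesis genes with MYBBP1A partners, 13 were higher and 15 lower, with a median of -0.02 and -0.03.

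Genes of the cell cycle fell with Nutlin-3a in both classes, and the mitosis genes had the most one-sided differences of the cell cycle lists. All 40 mitosis and spindle genes fell over the 5 lines. Their median line responses were -0.40, -0.51, -0.59, -0.70 and -0.57, with both NTC lines above the 3 guide lines. The difference was negative for 33 of 40, with a median of -0.17, and for 36 with a median of -0.13 after GC removal. At an unadjusted p under 0.05, 16 were lower in the guide lines and 1 higher, and 21 and 0 after removal, where 3.92% and 11.9% of all genes were lower. Line responses lay wholly lower in the guide lines for 26 (25 after removal), against 17.4% and 25.1% of all genes, and wholly higher for 1 (2 after removal), against 14.4% and 10.2%. None was called after adjustment. The median GC content of the mitosis list was 44.9%, in a decile where all genes had a median difference of -0.11 (-0.06 after removal). As deposited, 99 of the 1696 genes in that decile were lower at an unadjusted p under 0.05 and 8 higher.

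MKI67, the proliferation antigen, held 861, 459, 849 and 822 CPM in the NTC libraries in DMSO and 574, 376, 498 and 441 CPM with Nutlin-3a. The guide libraries held 790 to 907 CPM (median 832) and 379 to 473 CPM (median 426). The DMSO library of NTC1 from harvest 3 stood apart at 459 CPM, and the treated classes overlapped. Its difference was -0.40 (interval -0.66 to -0.13) and -0.35 after removal. CENPE, a kinetochore motor, differed by -0.47 and -0.42 and CENPF, a kinetochore protein, by -0.39 and -0.30.

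The mitosis median did not rest on that library. Without the DMSO library of NTC1 from harvest 3 it was -0.18, with 24 genes lower at an unadjusted p under 0.05. Without line NTC1 it was -0.12 with 18, without NTC2 -0.23 with 25, and without guide 4, 5 or 6 it was -0.18, -0.13 and -0.20 with 8, 3 and 4. Harvest 3 alone gave -0.13 with 1 gene and harvest 1 alone -0.23 with 28. With each of the 20 libraries left out in turn the median lay between -0.20 and -0.13, so its sign stayed in all these fits. The number of genes lower at that p moved over 1.5 times without NTC2, without each guide line and with either harvest alone. It did so too without 8 single libraries: it was 3 without NTC2 DMSO harvest 1 or guide 4 Nutlin-3a harvest 1, 6 without guide 6 Nutlin-3a harvest 3, 7 without NTC2 Nutlin-3a harvest 1, 8 without NTC1 DMSO harvest 1 or guide 6 DMSO harvest 1, and 10 without guide 6 DMSO harvest 3 or guide 5 Nutlin-3a harvest 1.

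Of 48 G1/S and replication genes, 43 fell over the 5 lines, with a median difference of -0.09 (-0.10 after removal). CLSPN, the checkpoint adaptor claspin, held 94.6, 78.4, 98.97 and 105 CPM in DMSO and 41.6, 39.9, 38.7 and 41.1 CPM with Nutlin-3a in the NTC libraries, against 92.7 to 105 CPM (median 104.5) and 28.7 to 39.0 CPM (median 34.4) in the guide libraries. The difference was -0.41 (SE 0.10, adjusted p = 0.407) and -0.33 (SE 0.06, adjusted p = 0.239) after removal. FAM111B, a nuclear protease, differed by -0.45 (interval -0.75 to -0.14) and -0.36. TK1, a thymidine kinase, went the other way, by 0.69 and 0.30. The most strongly lowered genes over the 5 lines were the transcription factors E2F2 (mean response -2.70) and ZNF367 (-2.51) and cyclin E2 (CCNE2, -2.42), which differed by 0.01, -0.17 and -0.29. The sign for E2F2 turned to -0.10 after GC removal and to -0.014 with RLE size factors.

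**Figure D3:**
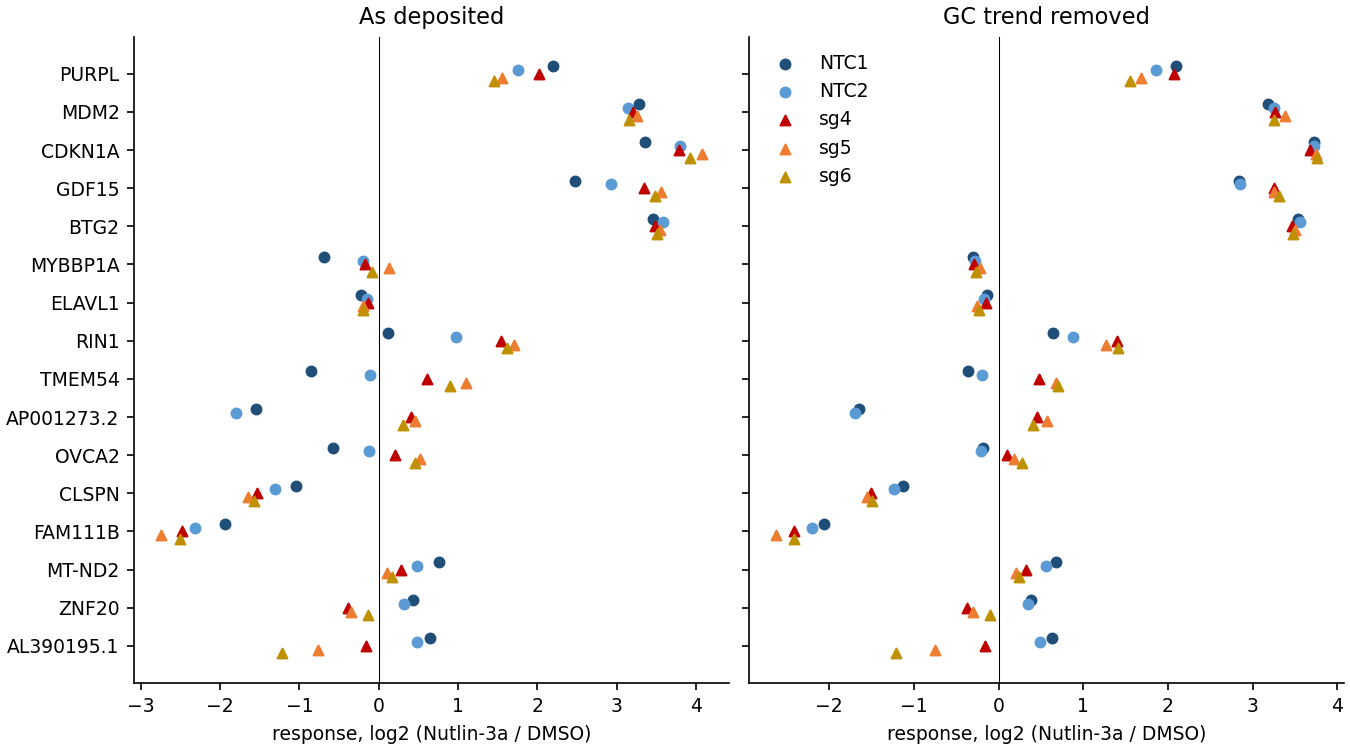
Log2 response to Nutlin-3a of 16 named genes in each of the 5 lines, NTC lines as circles and guide lines as triangles. MDM2 and BTG2 overlap between classes, while GDF15 (2.47 and 2.93 against 3.35 to 3.57) and CLSPN (-1.05 and -1.31 against -1.54 to -1.64) do not. GDF15 and CLSPN were named for a small p of this same difference. Of all genes, 14.4% lay wholly higher and 17.4% wholly lower in the guide lines.

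Other genes with the largest mean responses had wide intervals where they were scarce. SLC52A1, a riboflavin transporter, rose by 5.02 on the log2 scale with a difference of 0.46 (interval -1.22 to 2.15), and GRIN2C, a glutamate receptor subunit, rose by 4.92 with 0.28 (interval -0.32 to 0.88) that was -0.26 after GC removal. NECTIN4, an adhesion molecule, rose by 4.33 and differed by 0.45 (interval -0.22 to 1.13). None of the 10 genes with the largest mean rise or the 10 with the largest mean fall was called for a difference.

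Stress and signalling lists had small medians that often moved with the GC trend. Of 26 unfolded protein and ATF4 genes, 18 were higher in the guide lines with a median of 0.13, and 9 were higher and 0 lower at an unadjusted p under 0.05 (8.22% and 3.92% of all genes). After removal the median was 0.06, with 6 and 0 (4.30% and 11.9% of all genes). PHGDH, the entry enzyme of serine synthesis, differed by 0.58 (interval 0.25 to 0.91) and 0.39, CHAC1, a glutathione-degrading enzyme, by 0.86 and 0.41, and SESN2, a p53 target that restrains mTORC1, by 0.43 and 0.10. The median of 20 NF-kB targets went from 0.08 to -0.13 and that of 24 immediate early genes from 0.02 to -0.21, so both changed sign. Interferon-stimulated genes had medians of -0.05 and -0.06, and matrix and TGF-beta genes of 0.03 and -0.04. Of 9 tested genes of the chromosome 5p list, PURPL itself included, 8 were lower with a median of -0.19 (7 and -0.15 after removal). The list's median GC content was 44.4%, in a decile where all genes had a median of -0.13 (-0.06 after removal). None of the members of the 13 lists was called by edgeR in either fit. DESeq2, on the data as deposited, called GDF15 and SFN, both higher in the guide lines.

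**Figure D4:**
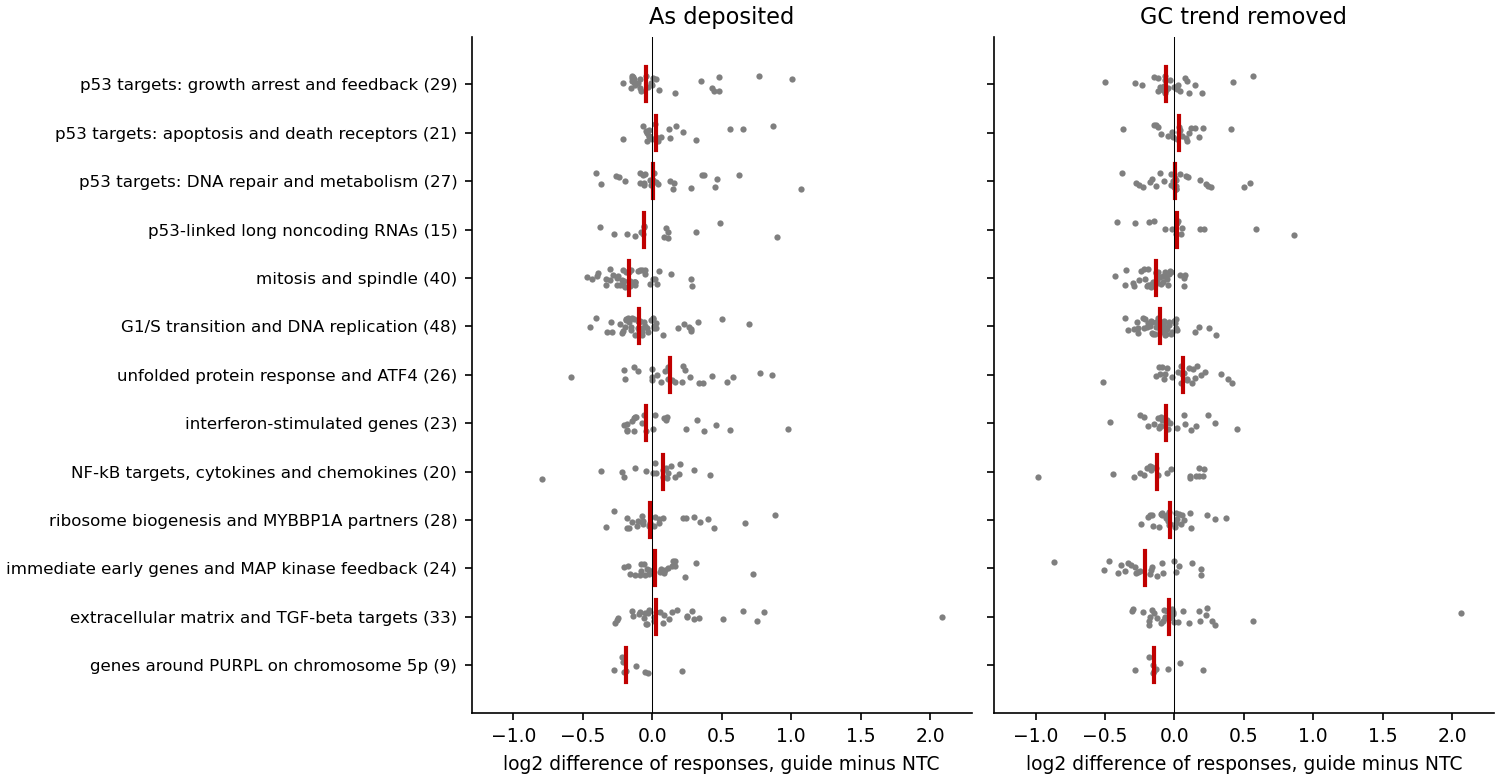
Log2 difference of responses (guide minus NTC lines) for the tested members of 13 gene lists, as deposited and with the GC trend removed; grey points are genes and red bars medians. The mitosis median is -0.17 and -0.13, and the p53 target medians lie between -0.06 and 0.03.

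Marker lists moved as well. Of 12 nuclear-retained and mitochondrial RNAs, 12 had a lower response in the guide lines, with a median difference of -0.31 (-0.25 after removal). At an unadjusted p under 0.05, 9 (10 after removal) were lower, where 3.92% (11.9%) of all genes were. Their summed level was 6720 to 7860 CPM in NTC and 7430 to 9080 in guide libraries in DMSO, and 9240 to 13000 and 9120 to 11500 with Nutlin-3a. MT-ND2, a subunit of respiratory complex I, differed by -0.44 (SE 0.10) and -0.36. Median differences were 0.79 for 9 endothelial markers (0.18 after removal) and 0.30 (0.15) for 12 fibroblast and mural markers. They were 0.26 (0.10) for 5 epithelial, 0.27 (0.08) for 3 hepatocyte and 0.17 (0.07) for 6 leukocyte markers. The median margin of a gene's interval, on either side, was 1.24 (endothelial) and 0.61 (fibroblast and mural). It was 0.45, 0.46 and 0.69 for epithelial, hepatocyte and leukocyte markers. In each list this margin exceeded the median difference, but it describes single genes and gives no error for a list's median. At an unadjusted p under 0.05, 3 endothelial markers were higher and 0 lower (1 and 0 after removal). The endothelial sum was 22.7 to 60.8 CPM, where ENG alone lay at 20 to 53.2 CPM. TEK, TIE1, FLT1, VWF and SOX18 reached at most 0.232 CPM. The part of RNA quality or cell mixture in the results above was not tested.

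AP001273.2 (ENSG00000284057.1) was the gene called in both fits. It is a protein-coding model on hg38 chromosome 11, 93741664 to 93812378, plus strand, that overlaps MED17 and C11orf54 on its strand and TAF1D on the other, so reads of these genes may be shared out among them. In DMSO the NTC libraries held 1.97, 5.29, 1.73 and 2.00 CPM and the guide libraries 0.00 to 3.31 CPM (median 1.68). With Nutlin-3a they held 1.70, 0.842, 0.443 and 0.568 CPM and 0.00 to 4.81 CPM (median 1.74). Single libraries of the classes overlapped widely, and the 2 harvests of a line often disagreed, as in guide 6, with 0.00 and 1.96 CPM in DMSO and 2.44 and 0.00 CPM with Nutlin-3a. Summed over harvests, the response was -1.55 and -1.80 in the NTC lines and 0.40, 0.46 and 0.31 in the guide lines. The difference was 2.07 (SE 0.17, edgeR adjusted p = 0.0355), and 2.17 (adjusted p = 0.000257) after GC removal. It passed in 19 of 47 alternatives, at adjusted p from 2.55e-20 to 0.877. As deposited, it was lost in each fit that kept the 20 libraries apart (adjusted p 0.336 to 0.446), without each guide line, and in 15 of the 20 fits without 1 library, such as that without the DMSO library of NTC1 from harvest 3 (1.59, adjusted p = 0.355). It passed without guide 4 DMSO harvest 1 or 3, NTC2 DMSO harvest 3, NTC1 Nutlin-3a harvest 1 or NTC2 Nutlin-3a harvest 3. With the GC trend removed it passed in all 6 fits without a line or that DMSO library of NTC1 (adjusted p 2.86e-13 to 0.0386), and not with PURPL_sgRNA_2 included or with the libraries kept apart.

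The genes next in rank did not pass edgeR's test, all at an adjusted p of 0.407. Among them DESeq2, on the data as deposited, called TMEM54, RIN1, OVCA2, RPS27AP16, SMIM11B, AL390195.1 and AC091959.3. The response was higher in the guide lines for TMEM54, a membrane protein (1.37, and 0.90 after removal), TBC1D10A, a GTPase activator (1.00 and 0.64), and RIN1, a RAS effector (1.10 and 0.61). It was also higher for OVCA2 (0.74 and 0.37), CORO7 (1.02 and 0.53), RPS27AP16 (1.01 and 1.08) and SMIM11B (1.16 and 1.18). The median level of TMEM54 in guide and NTC libraries was 1.62 and 2.62 CPM in DMSO, and 2.75 and 1.82 CPM with Nutlin-3a. The response was lower for ZNF20, a zinc-finger protein (-0.67 and -0.63), ZNRF2P2 (-0.93 and -1.52) and AL390195.1 (-1.28 and -1.26). It was also lower for AC091959.3 (-0.97 and -0.94), AC022826.2 (-0.52 and -0.43) and MTND2P28, a nuclear copy of MT-ND2 (-0.56 and -0.48). Of these, RPS27AP16, ZNRF2P2 and MTND2P28 are pseudogenes, and SMIM11B has a near copy. OVCA2, CORO7, ZNF20, TBC1D10A, AC091959.3, AC022826.2 and AL390195.1 overlap other genes on their own strand, and TMEM54 and RIN1 on the other strand. The counts of all these genes are uncertain. AL162151.2, a processed pseudogene on chromosome 14 (98973314 to 98973471), was called by edgeR with the GC trend removed (5.43, adjusted p = 0.0272) and not as deposited (5.83, adjusted p = 0.150). As deposited it was called by DESeq2 (adjusted p = 4.09e-06), and by edgeR with no filter, without the guide 4 line, and without guide 4 DMSO or Nutlin-3a harvest 3. It reached at most 0.598 CPM in a group and was named after its values were seen.

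How small a difference could be seen depended on the level. The margin of the 95% interval on either side of the estimate was 0.34 log2 units at the median of all genes and 0.22 with the GC trend removed. It was 1.58 for 1434 genes under 0.1 CPM, 0.81 for 3575 at 0.1 to 1, 0.39 for 3844 at 1 to 10, 0.23 for 5798 at 10 to 100, and 0.21 for 2360 over 100 CPM, by the mean of the 4 class and treatment levels. Of the 12002 genes at 1 CPM or more, 94.4% had an interval that lay within a 2-fold difference either way, and 99.1% after GC removal. In those genes 36 estimates were 2-fold or larger, and 14 after removal. The median SD between harvests of a line, from responses of single libraries matched by replicate number, was 0.15. That between lines of a class, from responses of sums of 2 harvests, was 0.12, which GC removal brought to 0.08. The units differ, so the values do not show whether harvests vary more than lines. These intervals are unadjusted and rest on 2 NTC lines, 3 guide lines and 3 residual degrees of freedom. The fit adds prior degrees of freedom drawn from all genes, with a median of 5.02.

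**Figure D5:**
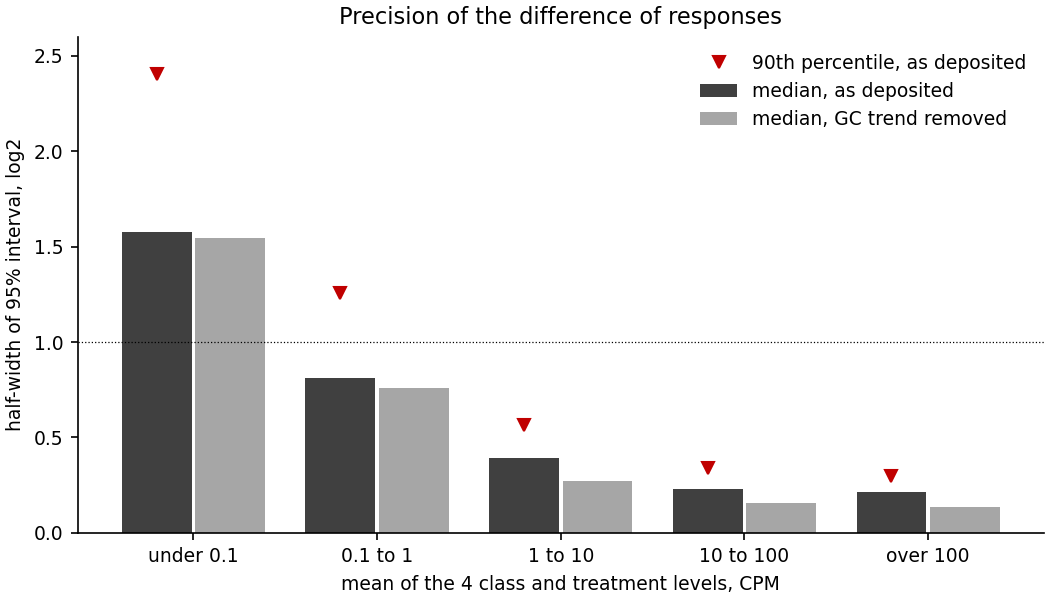
Margin (on either side) of the 95% interval of the difference of responses, in log2 units, by mean level in CPM; bars are medians as deposited and with the GC trend removed, triangles the 90th percentile as deposited, and the dotted line a 2-fold difference. Medians run from 1.58 under 0.1 CPM to 0.21 over 100 CPM.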

How the data were processed

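Per the labels' protocols, stranded TruSeq libraries of polyadenylated RNA were sequenced. Values are expected counts per gene, made by the authors with RSEM and deposited as 1 table. The submitters' processing notes also name cutadapt, STAR, DESeq2 and hg38. Versions, and whether counting used the strand, are not stated there. Between 5.6% and 7.16% of a library's values were not whole. The 45 rows for second copies of pseudoautosomal genes (0.0222% of counts) were merged, leaving 58825 genes, and counts were rounded.

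The 2 harvests of each line and treatment were summed, since guides were assigned to lines, giving 10 sums. edgeR 4.0.16 (R 4.3.3; TMM, filterByExpr with a minimum count of 10, robust quasi-likelihood) fitted each line and the Nutlin-3a response of each class, with 3 residual degrees of freedom. P-values were adjusted by Benjamini-Hochberg over all 17011 genes, at 0.05. P-values and intervals measure the spread between lines, moderated by a prior drawn from all genes (median of 5.02 prior degrees of freedom). The GC trend was a lowess curve (span 0.3) of each sum's deviation on transcript GC content, known for 99.7% of genes, entered as an offset. Gene models came from GENCODE release 29, in which 58552 IDs were found without their version and 47420 with it. The main fit did not pair samples by replicate number.

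Named genes were AP001273.2, the called gene, and the 8 smallest p-values in each direction at 1 CPM or more, the 10 largest mean responses each way, 5 genes tied to PURPL or p53, and up to 3 members of each of 13 lists by p. The members and lists were chosen with earlier results of these data known. Alternatives were other scalings and filters, DESeq2 1.42.0, blocks, a minimum fold, PURPL_sgRNA_2 included, and leaving out each library, line and harvest. GC removal with each line, or 1 library, left out was added after seeing the data. Intervals cover the spread between these lines only. A few named genes are left out of the text.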

Additional observations from a re-analysis of the deposited data

Results flagged for a closer look

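Among 88 groups of 4 or 6 libraries (a gene in a class and treatment), a level far from the rest was noted in 9. Chance marks about 1 in 20 such groups. The groups cover only part of the named genes. The lowest NTC libraries in DMSO for MKI67 (459 CPM, median 835), CENPF (400 CPM, median 703) and REV3L (30.1 CPM, median 63.7) are not among the 9. In DMSO, AP001273.2 was at 5.29 CPM in NTC1 harvest 3 (others 1.73 to 2.00), GDF15 at 1.95 CPM in NTC2 harvest 3 (3.50 to 3.60), AC091959.3 at 1.82 CPM in NTC1 harvest 3 (7.03 to 8.76) and CLSPN at 92.7 CPM in guide 5 harvest 1 (101 to 105). With Nutlin-3a, OVCA2 was at 9.97 CPM in NTC2 harvest 1 (14.0 to 14.6), ZNF20 at 3.86 CPM in NTC1 harvest 3 (4.08 to 4.11), AC091959.3 at 9.41 CPM in NTC1 harvest 1 (6.59 to 6.86), ELAVL1 at 119 CPM in guide 5 harvest 1 (135 to 142) and MDM2 at 4210 CPM in NTC2 harvest 1 (3758 to 3792).

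The response to Nutlin-3a differed between the classes by the edgeR test for AP001273.2, by 2.07 as deposited (adjusted p = 0.0355) and 2.17 with the GC trend removed (adjusted p = 0.000257), and for AL162151.2 by 5.43 with the trend removed (adjusted p = 0.0272). AL162151.2 was scarce, with a highest group mean of 0.598 CPM and several libraries at 0 CPM.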

How the results depend on the processing

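The limits are the 5 lines, 3 residual degrees of freedom, and low counts below 1 CPM. The number of genes called higher and lower in the guide lines was 20 and 3 with DESeq2, 9 and 2 with no filter, and 2 and 0 with the GC trend removed. It was 0 higher in the fits of 20 libraries with no block, with a block for the harvest number and with a replicate block for the pair of line and harvest, with a minimum fold of 2, with PURPL_sgRNA_2 included (with or without its Nutlin-3a library of harvest 1, or with GC removal), and with GC removal and the pair block. Whether replicate numbers pair the samples was not settled: the correlations of same-numbered deviations were 0.18, -0.14, 0.04, 0.62 and 0.49. Over all pairs of groups they ran from -0.62 to 0.66. The mean response was called up for 192 genes and down for 44 with a minimum fold of 2, up for 1856 with PURPL_sgRNA_2, and up for 5055 with GC removal and the pair block. Differences that changed sign, by setting, follow; the cause was not tested. RLE size factors gave E2F2 -0.014 and ELAVL1 -0.014, and DESeq2 -0.015 and -0.014. No filter gave MDM2 0.0035, and the 1 CPM filter MDM2 0.012 and BTG2 0.0046. HES2 was -0.058 with no block and -0.061 with the harvest block. GC removal gave GRIN2C -0.26, WDR63 0.0067, HES2 -0.27, E2F2 -0.10, ELAVL1 -0.052 and MDM2 0.087. GC removal with the pair block gave GRIN2C -0.25, WDR63 0.0054, HES2 -0.26, CDKN1A -0.0077, E2F2 -0.11, ELAVL1 -0.062 and MDM2 0.070. PURPL_sgRNA_2 included gave NBEAP1 -0.12 and E2F2 -0.0050, and without its Nutlin-3a library of harvest 1 E2F2 -0.057, NXPH2 0.066 and MDM2 0.0061. PURPL_sgRNA_2 with GC removal gave GRIN2C -0.28, HES2 -0.46, CDKN1A -0.20, E2F2 -0.20, ELAVL1 -0.10, MDM2 0.0025, DDIT4 -0.36 and SESN2 -0.019. With a library, line or harvest left out, with or without GC removal, 0 to 3549 genes were called higher and 0 to 3724 lower, and the mean response called 1215 to 5166 up and 1328 to 5448 down. The highest counts, 3549 and 3724, came without line NTC2, where the lone NTC line is assumed to vary like the others; without NTC1 they were 67 and 44, with harvest 1 alone 1479 and 638, with harvest 3 alone 0 and 0, and with GC removal and without the DMSO library of NTC1 from harvest 3 they were 8 and 26. Ranges of the difference over those fits were -0.64 to 1.59 for SLC52A1, -0.50 to 0.82 for GRIN2C, -0.094 to 0.88 for NECTIN4, -0.29 to 0.61 for NBEAP1, -0.22 to 0.093 for WDR63, -1.395 to 0.63 for HES2, -0.034 to 0.57 for CDKN1A, -0.97 to 0.30 for AL109976.1, -0.15 to 0.064 for BTG2, -0.21 to 0.15 for E2F2, -0.35 to 0.028 for ZNF367, -0.55 to 0.40 for NXPH2, -0.091 to 0.056 for ELAVL1, -0.11 to 0.12 for MDM2, -0.50 to -0.048 for PURPL, -0.13 to 0.81 for DDIT4, -0.0055 to 0.50 for TP53I3, -0.018 to 0.47 for ATF3 and -0.016 to 0.56 for IER3. Of 2583 values of named genes in those fits, 2272 kept their direction and side of the threshold, 21 lost the threshold, 168 gained it and 122 changed sign; in the other settings the counts of 986 were 936, 7, 11 and 32.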
